A study of Mus musculus with 16 samples.

Results

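The Nr4a nuclear receptors Nr4a1 (Nur77), Nr4a2 (Nurr1) and Nr4a3 (Nor1) were followed in CD4 T cells of mice, either wild type (WT) or lacking the kinase Erk2. Their probes were taken by gene symbol from the platform annotation: 5 of the 25697 probes on the array belonged to these 3 genes, 1 to Nr4a1, 1 to Nr4a2 and 3 to Nr4a3, of 16593 genes named on the array. All cells were from C57/BL6 mice, and RNA was hybridised to Illumina bead arrays. The 8 conditions were freshly taken cells (day 0), 3 hr of Th0 culture, 3 hr of iTreg culture, and day 1 cultures of Th0, Th1 and iTreg type and of Th0 type with TGF added for 1 hr or for 3 hr. Th0 is neutral culture, Th1 culture drives interferon-producing helper cells, and iTreg culture drives induced regulatory T cells with TGF (transforming growth factor beta). Each condition was measured on 1 WT and 1 Erk2-deficient array, 16 arrays in all, so the 8 culture pairs carry the comparison of genotypes and no combination was replicated. The labels do not give the Erk2 allele, a Cre driver, the age of the animals or how animals were shared between cultures, so the p-values reflect the spread among these arrays alone.

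Nr4a proteins are called orphan nuclear receptors: they can act without a bound ligand, and their activity follows mainly from how much of each protein is made. They bind the NBRE, an extended nuclear receptor site, as monomers, and related sites as dimers, and Nr4a1 and Nr4a2 can also pair with the retinoid X receptors. In T cells they are immediate early genes of the T cell receptor, switched on through calcium signals (calcineurin, NFAT and MEF2) and through the RAS to ERK kinases that act on CREB and SRF, and they are known for roles in negative selection, regulatory T cell development and T cell dysfunction.

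The promoters are shown because the CRE, the site of the CREB family that lies downstream of ERK, is a known control element of Nr4a genes. They are the 300 bases from 250 before to 50 after the start that the RefSeq promoter table takes for each gene in the GRCm38.p6 build, which for Nr4a1 and Nr4a3 lies inside the annotated gene, written 5′ to 3′ on the gene's own strand. Capitals mark the CRE core TGACG, or CGTCA where it lies on the other strand.
Nr4a1: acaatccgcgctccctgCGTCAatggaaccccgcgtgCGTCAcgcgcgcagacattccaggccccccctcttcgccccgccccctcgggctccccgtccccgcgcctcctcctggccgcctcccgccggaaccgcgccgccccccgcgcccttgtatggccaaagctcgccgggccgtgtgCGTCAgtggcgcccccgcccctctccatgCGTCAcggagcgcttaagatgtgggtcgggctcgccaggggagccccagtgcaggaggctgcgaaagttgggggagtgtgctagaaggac
Nr4a2: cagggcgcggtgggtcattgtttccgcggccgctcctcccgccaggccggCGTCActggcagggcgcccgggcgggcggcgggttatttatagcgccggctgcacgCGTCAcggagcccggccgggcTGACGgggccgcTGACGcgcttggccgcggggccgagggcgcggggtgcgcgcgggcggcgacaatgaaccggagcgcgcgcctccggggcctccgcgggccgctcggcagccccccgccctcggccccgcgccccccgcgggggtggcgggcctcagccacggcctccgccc
Nr4a3: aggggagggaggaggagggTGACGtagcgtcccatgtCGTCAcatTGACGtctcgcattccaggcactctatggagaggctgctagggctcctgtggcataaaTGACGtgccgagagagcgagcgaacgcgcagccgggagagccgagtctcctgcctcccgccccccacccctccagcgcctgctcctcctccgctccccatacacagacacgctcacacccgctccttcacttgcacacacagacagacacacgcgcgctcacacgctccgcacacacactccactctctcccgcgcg
The Nr4a1 window was chr15:101266596-101266895 on the plus strand, inside a gene annotated at chr15:101253902-101274795. The Nr4a2 window was chr2:57123954-57124253 on the minus strand, at the upper end of a gene at chr2:57106830-57124003. The Nr4a3 window was chr4:48045055-48045354 on the plus strand, over the start of a gene at chr4:48045078-48086447. Each of the 3 promoters held 4 CRE cores, whereas 20.8% of the 32851 mouse promoters of this length held at least 1 and 76 of them (0.231%) held 4 or more. In Nr4a1 each core was part of the longer motif TGCGTCA, which it held 4 times and the other 2 members did not hold. At least 1 copy of that motif was found in 2.12% of promoters. The full CRE TGACGTCA (1.79% of promoters), the AP-1 site TGANTCA (7.81%), the NBRE AAAGGTCA (1.51%) and the CArG box of SRF (1.63%) were found in none of the 3 windows on either strand. A MEF2 site was found once in Nr4a2 and in neither of the others, against 3.19% of promoters with at least 1. These matches describe letters in a window and say nothing of what binds there.

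Arrays had median intensities of 62.6 to 71.1, with 12172 to 12636 probes above background. A probe was kept if it was above background on at least 2 arrays, which left 14501 probes. The first principal component, which followed time in culture, held 71.7% of the variance, and the Erk2-deficient day 1 iTreg array stood apart on it, at 17.1 against 30.0 to 35.1 for the other day 1 arrays. The day 0 pair ran opposite to the cultured pairs in genes that otherwise moved 1 way: the Erk2-deficient minus WT difference of Gdpd3, a phosphodiesterase gene, was −3.48 (log2) at day 0 against 2.74 and 2.68 at 3 hr, and that of Hba-a1, a haemoglobin chain, was 3.20 against −3.45 and −3.43. The day 0 arrays are therefore called the arrays labelled WT and labelled Erk2-deficient. The first chip held the day 0, 3 hr and day 1 Th0 arrays and the second chip the remaining day 1 arrays, and position on the chip and genotype cannot be told apart. Of 10 listed T cell markers, 9 had a kept probe.

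Of the 5 member probes, 4 passed the filter: that of Nr4a2, above background on 11 of 16 arrays, and the 3 of Nr4a3, named here A (16 of 16), B (14 of 16) and C (11 of 16). Levels are normalized log2 intensities, which are compared between arrays for 1 probe and not between probes. Nr4a2 stood at 7.19 and 7.16 on the day 0 arrays labelled WT and Erk2-deficient. After 3 hr it stood at 10.51 (WT) and 9.07 (Erk2-deficient) in Th0 culture, and at 10.76 and 9.30 in iTreg culture. By day 1 the 5 WT arrays lay between 6.34 and 6.54 and the 5 Erk2-deficient arrays between 6.13 and 6.22. The 4 arrays at 3 hr were thus the highest of all, the day 0 arrays came next and the day 1 arrays were lowest, with no overlap between the 3 times. The day 1 values were close to background, above it on all 5 WT arrays and on 0 of the 5 Erk2-deficient arrays. In the deposited linear intensities Nr4a2 was 1305 (WT) against 545 (Erk2-deficient) at 3 hr in Th0 culture and 1539 against 530 in iTreg culture. The corresponding intensities at day 1 were 71.4 to 83.5 on WT arrays and 61.0 to 67.7 on Erk2-deficient arrays.

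Nr4a3 followed another course after the same peak. Its brightest probe, A, stood at 6.34 and 6.39 on the day 0 arrays labelled WT and Erk2-deficient. It stood at 10.21 (WT) and 9.68 (Erk2-deficient) after 3 hr in Th0 culture and at 10.57 and 9.76 in iTreg culture. At day 1 it lay between 7.05 and 7.61 on WT arrays and between 7.36 and 7.89 on Erk2-deficient arrays. Day 1 was therefore lower than 3 hr on every array but above both day 0 arrays, where Nr4a2 at day 1 was below its day 0 level. Probe B had the same order, from 5.97 and 6.07 at day 0, not above background, through 9.21 to 10.24 at 3 hr to 7.03 to 7.94 at day 1. Probe C spanned less, from 5.98 and 6.21 at day 0, also not above background, through 7.43 to 7.97 at 3 hr to 6.28 to 6.68 at day 1. All 3 probes placed the arrays at 3 hr highest.

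Nr4a1, the member most used as a readout of T cell receptor signal, gave an intensity near background on these arrays. Its single probe passed the background threshold on 1 of 16 arrays, the WT 3 hr iTreg array, with an intensity of 68.9 against a threshold of 68.0. On the other 15 arrays its intensity was 41.8 to 66.2, so it failed the filter and has no place in the tests of kept probes. When all 25697 probes were fitted without the filter, its fitted log2 difference was 0.26 between 3 hr and day 0 (limma adjusted p = 0.02) and −0.34 between day 1 and 3 hr (adjusted p = 6.74e-05), both between levels not above background on most arrays. Its genotype difference was −0.15 at 3 hr (adjusted p = 0.563) and −0.03 at day 1 (adjusted p = 0.876). A change in Nr4a1 was not detectable as a level above background with this probe. With 1 probe, little Nr4a1 RNA and a weakly responding probe cannot be told apart.

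**Figure D1:**
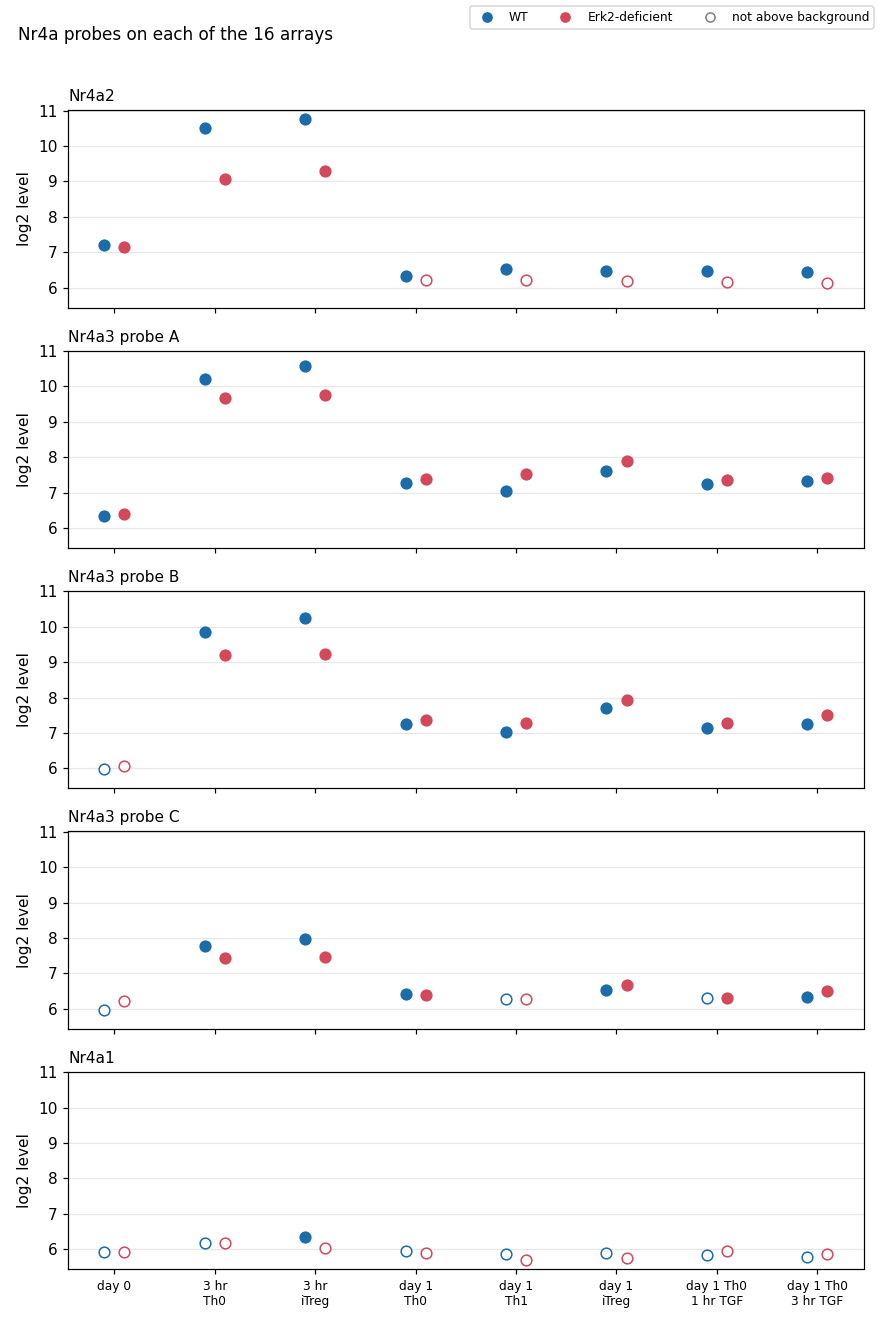
Normalized log2 intensity of each of the 5 member probes on each of the 16 arrays, with conditions along the horizontal axis and WT and Erk2-deficient arrays in different colours. Open circles were not above background. Nr4a2 and the Nr4a3 probes peak at 3 hr in both genotypes, with the WT array the higher of each 3 hr pair, and Nr4a1 was above background on 1 array.

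The rise by 3 hr and the fall by day 1 were tested over both genotypes in limma fits of all 16 arrays, with p-values adjusted over the 14501 kept probes. At 3 hr against day 0, 25.4% of probes were called higher and all 4 member probes were among them. Nr4a2 rose 6.64-fold (2.73 on the log2 scale, SE 0.075, adjusted p = 5.66e-14) and Nr4a3 rose 12.9-fold by probe A (3.69, SE 0.0906, adjusted p = 2.15e-14). Since probes B and C were not above background at day 0, their rises are bounds, at least 10.04-fold and at least 2.55-fold, which were not tested. Their calls rest on the fitted rises of 3.61 (adjusted p = 1.13e-14) and 1.57 (adjusted p = 5.75e-11), which use those day 0 levels. Among the fitted rises of the 14501 probes, that of probe A was the 7th largest and that of Nr4a2 the 35th. At day 1 against 3 hr, 34.8% of probes were called lower, again with all 4 member probes. Nr4a2 fell by 3.59 on the log2 scale (SE 0.0513, adjusted p = 1.77e-18), a size limited by background, since 5 of the 10 day 1 arrays were not above it, and Nr4a3 fell by 2.65 by probe A (SE 0.0619, adjusted p = 6.09e-16). Most day 1 cultures were on another chip than the 3 hr cultures. Within the chip that held both, the day 1 Th0 minus 3 hr Th0 difference, chosen after the data were seen, was −3.51 for Nr4a2, −2.63 for probe A, −2.23 for probe B and −1.20 for probe C, all called lower, as were 28.6% of probes.

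Where the receptors stood after the peak was compared in day 1 Th0 culture against day 0, on 1 chip, in a comparison also chosen after the data were seen. Nr4a2 was 1.87-fold below its day 0 level (log2 difference −0.90, SE 0.0866, adjusted p = 8.86e-08), in a comparison that called 30.4% of probes lower. The Erk2-deficient day 1 Th0 array was not above background for Nr4a2. Nr4a3 remained above day 0, by 1.93-fold for probe A (0.95, SE 0.105, adjusted p = 4.72e-07), while 31.4% of probes were called higher. Probe B was at least 2.0-fold higher and probe C at least 1.06-fold, as bounds that were not tested. Their fitted differences, which use day 0 levels not above background, were 1.29 (limma adjusted p = 4.26e-09) and 0.30 (adjusted p = 0.00734).

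At 3 hr every member probe that was kept was lower without Erk2, and Nr4a2 the most. In the Th0 and iTreg pairs the Erk2-deficient minus WT difference of Nr4a2 was −1.44 and −1.45, nearly the same in both cultures. That of Nr4a3 was −0.53 and −0.81 by probe A, −0.66 and −1.02 by probe B, and −0.34 and −0.50 by probe C. For each of these probes both WT arrays lay above both Erk2-deficient arrays. Of all kept probes 2.22% were called lower at 3 hr, and the 4 member probes were called. Nr4a2 was 2.72-fold lower (log2 difference −1.45, SE 0.0866, 95% interval −1.63 to −1.26, adjusted p = 4.75e-08), the 7th largest fall of the 14501 probes. Nr4a3 was 1.59-fold lower by probe A (−0.67, SE 0.105, adjusted p = 0.00105), 1.79-fold by probe B (−0.84, SE 0.0964, adjusted p = 5.8e-05) and 1.34-fold by probe C (−0.42, SE 0.0894, adjusted p = 0.0133). The calls for Nr4a3 were less stable than that for Nr4a2. Without the iTreg pair the difference of probe A was −0.53 (adjusted p = 0.209) and that of probe C −0.34 (adjusted p = 0.469), and without the Th0 pair that of probe C was −0.50 (adjusted p = 0.064). In a fit that left out the culture pairing, the adjusted p was 0.108 for probe A, 0.0943 for probe B and 0.152 for probe C, and with median scaling that of probe C was 0.0701.

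Nr4a2 was still induced without Erk2, but less than in WT cells. From day 0 to 3 hr Nr4a2 rose 9.93-fold in Th0 and 11.8-fold in iTreg culture in WT cells, and 3.75-fold and 4.42-fold in Erk2-deficient cells. Probe A of Nr4a3 rose 14.7-fold and 18.7-fold in WT cells and 9.78-fold and 10.3-fold in Erk2-deficient cells. On day 0 the arrays labelled Erk2-deficient and WT differed by −0.03 for Nr4a2 and by 0.05 for probe A. The genotype difference at 3 hr minus that at day 0, a comparison chosen after the data were seen, was −1.41 for Nr4a2 (SE 0.15, adjusted p = 6.09e-05), in a comparison that called 0.876% of probes lower. It was −1.48 with the day 0 labels exchanged (adjusted p = 0.000147). For Nr4a3 it was −0.72 by probe A (adjusted p = 0.0744), and −0.62 with the day 0 labels exchanged (adjusted p = 0.229). With the day 0 labels as given, the fitted value was −0.94 by probe B and −0.65 by probe C. Both probes were not above background at day 0, so these sizes rest on day 0 levels that were not measured.

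Markers of other cells moved with genotype in the same arrays. For the counts below, 2.22% of all kept probes were called lower and 1.23% higher at 3 hr. At day 1 these shares were 2.88% lower and 3.49% higher. At 3 hr the summed normalized intensity of 6 of 11 listed myeloid markers (those with a kept probe) was 2983 to 3518 in WT and 1825 to 1969 in Erk2-deficient samples. Of these, 3 were called lower, Lyz1 (−1.42), Lyz2 (−0.96) and S100a9 (−0.78), and Itgam and Cd14 were not above the filter. The 2 kept red cell markers of 3, Hba-a1 (−3.44) and Alas2 (−0.76), were both lower, and their sum was 5557 to 5659 against 569 to 583. For 7 of 10 B cell markers the sum was 1026 to 1056 against 826 to 833, and 3 were called lower, the class II genes H2-Ab1 (−0.69), Cd74 (−0.57) and H2-Aa (−0.45). For 5 of 7 CD8 and NK cell markers it was 1604 to 1772 against 1682 to 1703, with none called. The 9 kept T cell markers summed to 40190 to 44521 in WT and 50663 to 53319 in Erk2-deficient samples, with Cd5 called higher (0.36). At day 0 the red cell sum was 604 on the array labelled WT and 5024 on the array labelled Erk2-deficient, and at day 1 it was 360 to 457 in WT and 134 to 279 in Erk2-deficient samples. The myeloid sum was 818 to 967 against 786 to 963 at day 1, where 2 of the 6 markers were called higher, S100a8 (0.71) and S100a9 (0.42), and 3 lower, among them Lyz1 (−0.60) and Lyz2 (−0.35). Also at day 1, Hba-a1 was lower (−1.78), 1 B cell marker was higher, Cd74 (0.24), and 2 were lower, H2-Ab1 (−0.31) and H2-Aa (−0.28). Of the T cell markers Cd2 (0.63), Thy1 (0.60) and Trat1 (0.47) were higher at day 1 and Cd5 (−0.38) lower, and 2 CD8 and NK cell markers were higher, Nkg7 (0.77) and Klrd1 (0.31). The part of these markers in the Nr4a results was not tested. In RNA of whole cultures, fewer cells that express a gene and less RNA per cell cannot be told apart.

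At day 1 the fitted differences of Nr4a2 and Nr4a3 had opposite signs, and only that of Nr4a2 was called. Nr4a2 was still lower without Erk2, by −0.13 in Th0, −0.32 in Th1, −0.28 in iTreg, −0.31 with 1 hr of TGF and −0.33 with 3 hr of TGF. All 5 WT arrays lay above all 5 Erk2-deficient arrays. The fitted difference was −0.27 (SE 0.0548, adjusted p = 0.0069) where 2.88% of probes were called lower. As a level it is a bound, at least 1.11-fold higher in WT (mean log2 level 6.45 against 6.18), because no Erk2-deficient array was above background. Nr4a3 leaned the other way without passing the test. By probe A it was higher without Erk2 by 0.11, 0.46, 0.28, 0.12 and 0.10 in the same order of cultures, and the genotypes overlapped. The fitted difference was 0.21 (SE 0.0662, 95% interval 0.07 to 0.35, adjusted p = 0.0669) by probe A, 0.19 (0.06 to 0.32, adjusted p = 0.0755) by probe B and 0.06 (−0.06 to 0.18, adjusted p = 0.618) by probe C. Of all kept probes 3.49% were called higher.

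**Figure D2:**
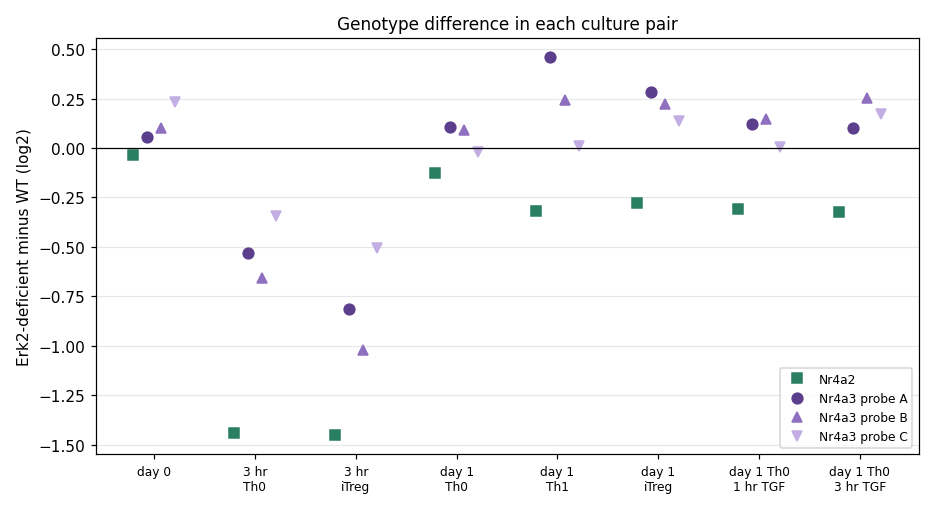
Erk2-deficient minus WT log2 difference of the 4 kept member probes in each of the 8 culture pairs, 1 point per pair. All 4 probes lie below 0 in both 3 hr pairs. At day 1 Nr4a2 lies below 0 in 5 of 5 pairs and probes A and B of Nr4a3 above 0 in 5 of 5.

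The genotype difference itself was compared between 3 hr and day 1. Day 1 minus 3 hr, it moved up by 1.17 for Nr4a2 (SE 0.103, adjusted p = 5.24e-05), by 0.89 for Nr4a3 probe A (SE 0.124, adjusted p = 0.0011), by 1.03 for probe B (SE 0.114, adjusted p = 0.00025) and by 0.48 for probe C (SE 0.106, adjusted p = 0.03). This comparison called 0.986% of all probes higher. Without the 3 hr iTreg pair the change was 0.74 for probe A (adjusted p = 0.109) and 0.40 for probe C (adjusted p = 0.511), and probe C kept its call under 7 of the 15 other settings tried. Since no Erk2-deficient array was above background for Nr4a2 at day 1, the size of its change, 1.17, is limited by the background level and does not show how far the deficit itself shrank.

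**Figure D3:**
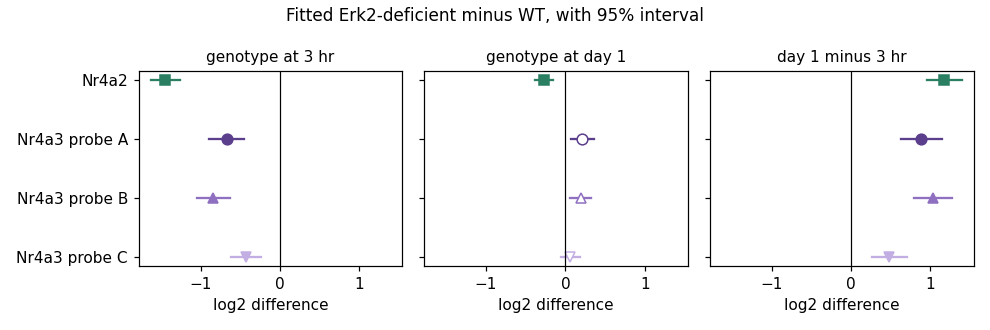
Fitted Erk2-deficient minus WT log2 differences of the 4 kept member probes with 95% intervals, at 3 hr (left), at day 1 (middle) and as day 1 minus 3 hr (right). Open symbols did not pass the adjusted p threshold. The largest difference at 3 hr is that of Nr4a2, −1.45, and the 3 Nr4a3 probes are the open symbols at day 1.

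Nr4a2 and Nr4a3 were compared directly in the 7 cultured pairs. In each pair the genotype difference of Nr4a3 probe A was subtracted from that of Nr4a2, giving a mean of −0.57 (SD 0.230, n = 7) and a range of −0.91 to −0.24. Nr4a2 had the lower value in 7 of 7 pairs (exact two-sided sign-flip permutation test, p = 0.0156, the smallest that 7 pairs allow). Of these pairs 5 were from day 1, where no Erk2-deficient array was above background for Nr4a2. Probes of 1 gene also differed in size, with fitted 3 hr differences of −0.67 (A), −0.84 (B) and −0.42 (C) for Nr4a3. Probes B and C were not set against Nr4a2. The test with probe A was the only comparison between members, since Nr4a1 was not kept. The levels of both genes shared the 3 hr peak, with a Pearson correlation of 0.883 over the 16 arrays. That of their pair differences was 0.891 over 8 pairs, the day 0 pair included. Both differences were negative at 3 hr. At day 1 they had opposite signs, −0.33 to −0.13 for Nr4a2 and 0.10 to 0.46 for probe A. The correlations are a description of arrays that share time points and chips.

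Between culture types of 1 time point, the called difference was that of Nr4a3 between iTreg and Th1 culture. At 3 hr iTreg culture was above Th0 culture by 0.24 for Nr4a2 and by 0.21, 0.20 and 0.12 for probes A, B and C of Nr4a3, each with an adjusted p of 0.993. That comparison called 0% of probes, with 698 at an unadjusted limma p under 0.05. At day 1 Nr4a3 was higher in iTreg than in Th1 culture, by 1.38-fold for probe A (0.47, SE 0.105, adjusted p = 0.00704) and by 1.59-fold for probe B (0.67, SE 0.0964, adjusted p = 0.00016), in a comparison that called 6.43% of probes higher. Probe C had a difference of 0.32 (adjusted p = 0.026), limited by background, since neither Th1 array was above it. With array weights probe C was not called (adjusted p = 0.0716). Nr4a2 differed by −0.04 between iTreg and Th1 culture in the main fit (adjusted p = 0.833). The outlying Erk2-deficient iTreg array was in this comparison, and on the WT arrays alone probe A was 7.61 in iTreg against 7.05 in Th1 culture. TGF added to Th0 culture, against Th0 culture on the other chip, gave differences of −0.03 to 0.02 over the 4 probes (adjusted p = 0.982 to 0.993), where 1.04% of probes were called. Whether the genotype difference depended on TGF was tested between the day 1 cultures with and without it. It differed between them by −0.08 for Nr4a2 (95% interval −0.33 to 0.17) and by −0.12, 0.04 and 0.11 for probes A, B and C, each with an adjusted p of 0.999. That comparison called 0% of probes, with 483 at an unadjusted limma p under 0.05. In order of mean level, Nr4a2 was highest in 3 hr iTreg and 3 hr Th0 culture, whose ranges overlapped, then at day 0, then in the day 1 cultures, whose neighbours overlapped. Nr4a3 by probe A had the same top 2, then day 1 iTreg, which overlapped neither neighbour, then the other 4 day 1 cultures, and day 0 last.

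Other immediate early genes moved both ways by 3 hr. Of 24 listed genes 20 were measured on a kept probe, and at 3 hr 6 were higher than at day 0 and 8 lower, where 25.4% and 25.8% of all kept probes were. Egr2, a zinc finger factor of T cell receptor signalling, was higher by 3.67, while the AP-1 members Fosb, Fos and Junb were lower by −3.11, −2.91 and −2.29 on the log2 scale. By day 1, 18 of the 20 were lower than at 3 hr, among them Fos (−3.59), Egr1 (−3.15), Zfp36 (−2.78) and Egr2 (−2.66), and 1 was higher, Dusp4 (1.5), named after its values were seen. Over all kept probes 34.8% were lower and 33.3% higher. Without Erk2, 6 of the 20 were lower at 3 hr and 0 higher (2.22% and 1.23% of all probes), with a median difference of −0.32 against 0.01 over all kept probes. The largest were Dusp6, an ERK phosphatase (−1.85), the stress factor Atf3 (−1.18), Egr2 (−1.05) and the phosphatase Dusp2 (−0.46). At day 1, where 2.88% of all probes were lower and 3.49% higher, 9 were lower, led by Egr1 (−2.02), Dusp6 (−1.16), Egr2 (−1.14) and Dusp4 (−0.77), and 1 was higher, Dusp1 (0.22), also named after its values were seen. The deficit shrank from 3 hr to day 1 for 2 of the 20, Atf3 (1.06) and Dusp6 (0.69). Over all kept probes the genotype difference moved up for 0.986% and down for 0.248%.

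**Figure D4:**
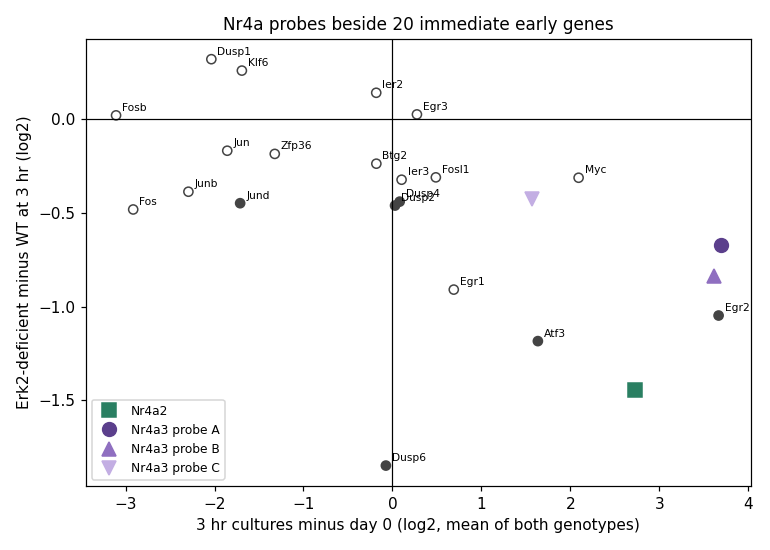
Rise from day 0 to 3 hr (horizontal, log2) against the Erk2-deficient minus WT difference at 3 hr (vertical, log2) for the 20 measured immediate early genes and the 4 kept Nr4a probes. Filled points were called in the genotype comparison. Nr4a2 lies at 2.73 and −1.45, near Atf3 and Egr2, and Fosb and Fos lie at the left with no call.

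The measured genes of the pathways that switch Nr4a genes on included 1 called for genotype at 3 hr. Over all kept probes 2.22% were called lower and 1.23% higher at 3 hr, and 2.88% lower and 3.49% higher at day 1. Of 18 genes of the calcium, NFAT and MEF2 arm 15 were measured and 0 were called at 3 hr. The largest differences were −0.24 for the deacetylase Hdac7 (adjusted p = 0.213), which represses MEF2 targets including Nr4a1 in thymocytes, and −0.15 for Mef2a (adjusted p = 0.411). At day 1 Hdac7 was lower (−0.35) and Ppp3ca, a calcineurin catalytic subunit, higher (0.34). Of 20 genes of the RAS to ERK arm with the CREB and SRF factors 11 were measured. At 3 hr the kinase Rps6ka3 was lower (−0.39, adjusted p = 0.0449). Rasgrp1, which activates RAS below the T cell receptor, had a difference of 0.39 at 3 hr (adjusted p = 0.161) and was higher at day 1 (0.53), as was the CREB family member Crem (0.25).

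Of 25 retinoid X receptors and other nuclear receptors 14 were measured. At 3 hr the retinoic acid receptor Rara was lower without Erk2 (−0.46, adjusted p = 0.00934) and Rora had a difference of −0.37 (adjusted p = 0.0657). At day 1 Rxra, a partner of Nr4a1 and Nr4a2, was lower (−0.33, adjusted p = 0.00787), and 0 were higher at either time. These counts of 14 genes say little beside the shares over all kept probes, 2.22% lower and 1.23% higher at 3 hr. At day 1 those shares were 2.88% lower and 3.49% higher. Of 26 genes reported downstream of or bound by Nr4a factors in T cells 19 were measured. At 3 hr 6 were lower, with the cytokine Tnf (−1.55), the cell cycle inhibitor Cdkn1a (−1.20), the interleukin receptor chain Il2ra (−0.89) and the cyclin Ccnd2 (−0.82) the largest. Gata3, named after its values were seen, was the 1 gene called higher at 3 hr (0.35). Over all kept probes 2.22% were lower and 1.23% higher at 3 hr. The median over the 19 was −0.33 at 3 hr and 0.02 at day 1. At day 1, 7 were higher, among them Gata3 (0.95) and Il4 (0.69), and 3 were lower, Tnf (−0.75), Cdkn1a (−0.70) and, named after its values were seen, the inhibitory receptor Lag3 (−0.27), against 3.49% higher and 2.88% lower over all kept probes. The genotype difference moved up between 3 hr and day 1 for 8 of the 19, led by the regulatory T cell factor Foxp3 (1.17), Il2ra (1.14), Tnf (0.80) and the inhibitory receptor Ctla4 (0.79), and down for 0. Over all kept probes it moved up for 0.986% and down for 0.248%. These genes have many other regulators, and the counts describe the list only.

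By correlation over the 16 arrays, the genes most like Nr4a2 were Ndrg1, a stress-responsive gene (r = 0.993), the ubiquitin ligase gene Hectd2 (0.99) and Zswim4 (0.989). By correlation of the 8 pair differences they were the thioesterase gene Acot7 (0.988), the heat shock gene Hspa1a (0.982) and the semaphorin Sema7a (0.980). The genes most like Nr4a3 probe A were the sulfotransferase gene Sult2b1 (0.984), the kinase gene Map2k3 (0.983) and Isy1 (0.982) over arrays. Over pair differences they were the myeloid granule gene Mpo (0.975), the adaptor gene Traf6 (0.965) and Tapbp (0.963). Arrays of 1 time point share most of their expression, so the values over arrays describe a common time course. What the values over pair differences reflect was not tested.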

How the data were processed

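Per the labels, total RNA of CD4 T cells was extracted, and biotin-labelled cRNA was hybridised to Illumina bead arrays. The deposited non-normalized table gives linear intensity per probe, without detection p-values or control probes. The series matrix, deposited by the authors, gives normalized intensity and served as an alternative. Neither the scanner software nor that normalization is given in the sources used here.

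Of 25697 probes, 23978 had 1 symbol in the platform annotation, 0 had several and 1719 had none. Intensities were background-corrected (normexp, offset 50), quantile normalized and log2 transformed in limma 3.58.1 under R 4.3.3. A probe was above background when it passed the 99th percentile of a normal distribution around the mode of log2 intensity of that array. Probes above background on at least 2 arrays were kept, 14501 in all. The fit had a term for each of the 8 culture conditions, and genotype separately at day 0 (1 pair), 3 hr (2 pairs) and day 1 (5 pairs), with 5 residual degrees of freedom. P-values were adjusted by Benjamini-Hochberg over all kept probes, at a threshold of 0.05. Where a group was never above background, a fold is a lower bound against the background level. The fits were tested on simulated data. Array number limits the precision.

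The members and the gene lists were chosen with earlier results of these data known. Text names every member probe, the 3 genes most correlated with each member, and up to 4 called members of each pathway list (the 2 largest where under 2 were called). Lists use each gene's brightest kept probe. A gene that the rule for named genes had included is not reported here. Marker lists are given by their sums and counts, with up to 4 called markers named in each comparison. Promoters are from RefSeq, where all 3 members matched. The fits were repeated with other background corrections, other normalizations, the series matrix, other filters, array weights, other blocks, and leaving out each pair.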

Additional observations from a re-analysis of the deposited data

Results flagged for a closer look

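Among the 5 day 1 pairs, the Nr4a2 genotype difference in the Th0 pair, −0.13, stood apart from the other 4, which lay between −0.33 and −0.28. Its gap to the nearest pair was 0.761 of the whole range, above the critical value of 0.71. The 4 kept probes were examined in this way, and chance flags about 1 such set in 20. The Th0 pair is also the only day 1 pair on its chip, and the part of the chip was not tested. On the other chip alone the fitted day 1 difference of Nr4a2 was −0.31 (limma adjusted p = 0.0196).

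The Erk2-deficient minus WT difference changed between 3 hr and day 1 for all 4 kept probes when the change itself was tested, by 1.17 for Nr4a2, 0.89 for Nr4a3 probe A, 1.03 for probe B and 0.48 for probe C. The size for Nr4a2 is limited by background at day 1, and the call for probe C held under 7 of 15 other settings.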

How the results depend on the processing

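Other processing settings gave 537 values for the member probes: 518 kept their side of the threshold, 18 lost a call and 1 gained a call. The direction changed in 8 values that were not called, and in 0 that were called. Some settings cannot change a given fitted size, so these counts overstate the number of separate checks. Leaving out the day 0 pair or a day 1 pair, for example, cannot change the size of a 3 hr difference. The Nr4a2 difference at 3 hr kept its call under all 16 settings tried (−1.46 to −1.39). It was −1.45 without the 3 hr Th0 pair and −1.44 without the 3 hr iTreg pair. Leaving out each pair in turn, the Nr4a3 probe A difference at 3 hr ranged from −0.81 to −0.53 and its change from 3 hr to day 1 from 0.74 to 1.03; both calls were lost without the 3 hr iTreg pair (adjusted p = 0.209 and 0.109). In the unpaired fit, with no replicate block for the culture pair, the 3 hr difference of probe A was −0.67 (adjusted p = 0.108) and the day 1 difference of Nr4a2 −0.27 (adjusted p = 0.0567). With array weights the day 1 difference of probe A was called (0.22, adjusted p = 0.0387). The cause of these changes was not tested, beyond the smaller number of pairs where one was left out. Probe B lost its 3 hr call only in the unpaired fit (adjusted p = 0.0943), and probe C kept the call for its change from 3 hr to day 1 under 7 of 15 settings. Levels near background limit Nr4a1, probe C and Nr4a2 at day 1.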
